A study of Mus musculus with 10 samples.

Results

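Genes that mark oligodendrocyte precursors and the stages just after them, 9 in number (Pdgfra, Cspg4, Olig1, Olig2, Sox10, Vcan, Gpr17, C1ql1 and Bcas1), were followed through RNA of hippocampal synaptoneurosomes from C57Bl/6J mice. A synaptoneurosome preparation enriches pinched-off and resealed synaptic compartments. The 9 genes were taken by symbol, and each of the 9 was found once among the 22255 genes of the deposited table. The 2 groups were mice given vehicle (5 libraries) and mice given AM6545 over a sub-chronic course (5 libraries), all wild type. AM6545 blocks CB1 cannabinoid receptors, and little of it crosses into the brain. The labels give no dose, age or sex, nor whether a library came from 1 animal or a pool, so n counts libraries and p-values measure only the spread between them.

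Oligodendrocyte precursors are glial cells that divide in response to platelet-derived growth factor and receive synaptic contacts from neurons, in the hippocampus as elsewhere in the brain. Under the control of the transcription factors Olig1, Olig2 and Sox10, some of them leave the cell cycle, pass through a short stage marked by Gpr17 and Bcas1, and become myelinating oligodendrocytes. The precursor surface and its surrounding matrix are lost on the way, while Sox10, Olig1 and Olig2 stay expressed in myelinating cells.

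Library totals ran from 18106112 to 25899794 estimated counts, and 16536 to 16880 genes had a count in a library. The 9 genes together took 0.0508% to 0.107% of a library's counts. Markers of excitatory neurons summed to 4145 to 5272 CPM (counts scaled to the library total), so the neuronal content of the fraction was read in all 10 libraries. Choroid plexus and ependyma markers varied most between libraries, from 450.5 CPM in vehicle replicate 4 to 10228 CPM in vehicle replicate 3. In such bulk samples, fewer cells of a type and less RNA per cell cannot be told apart.

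None of the 9 genes differed between AM6545 and vehicle beyond the spread between libraries. In edgeR's quasi-likelihood test across 14358 genes, 0 of the 9 passed a Benjamini-Hochberg adjusted p of 0.05, where 0% of all tested genes did. At an unadjusted p under 0.05 the count was also 0 of 9, against 1.88% of all genes. DESeq2 called 0 genes in the whole table and limma-voom called 1, which was not among the 9. The 5 AM6545 libraries were separated from the 5 vehicle libraries for 0 of the 9 genes, a separation seen for 0.293% of all genes. Of the 9 fitted differences, 7 were above 0, against 48.1% of all genes, and 2 were below. Their median was 0.14 on the log2 scale, beside -0.01 for all tested genes. That tally rested in large part on AM6545 replicate 3, without which 4 of 9 were above 0 with a median of -0.01, again beside -0.01 for all genes. Without AM6545 replicate 4 it was 5 of 9, with a median of 0.07. The 95% intervals of the 9 together ran from 0.680-fold (Vcan) to 1.55-fold (Gpr17), and that of C1ql1 was narrower, at 0.862-fold to 1.199-fold. Changes inside a gene's own interval are not resolved by these libraries.

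**Figure D1:**
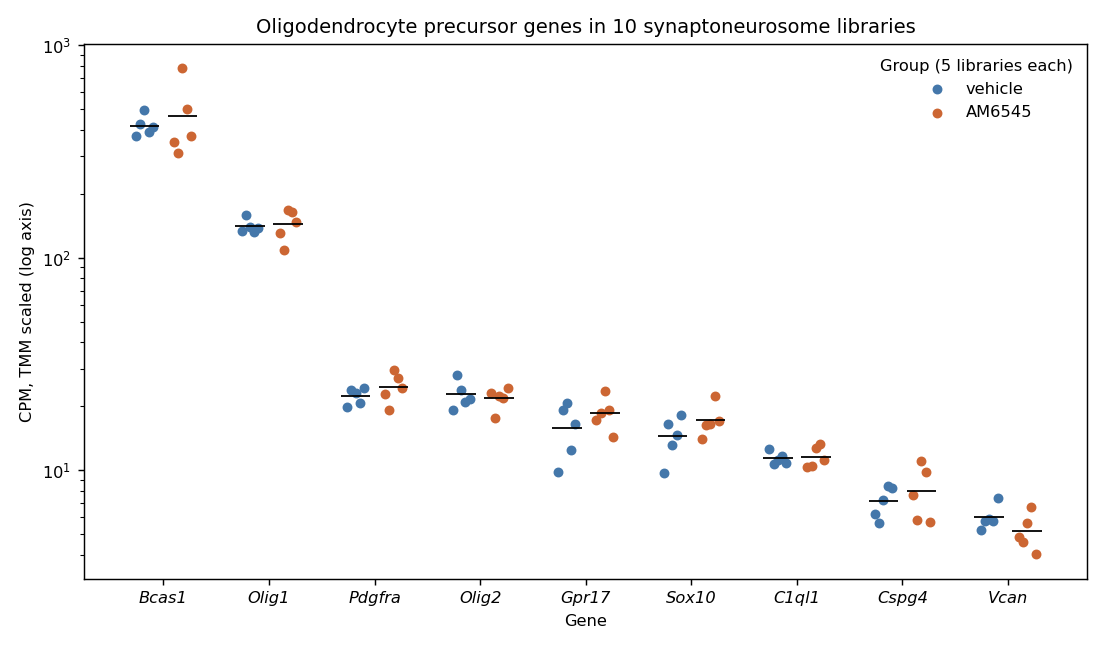
CPM scaled by edgeR's TMM factors (log axis) of the 9 genes in each of the 5 vehicle and 5 AM6545 libraries, with the group mean as a line. The groups overlap for every gene, and Bcas1 spans 310 to 779 CPM across the AM6545 libraries.

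**Figure D2:**
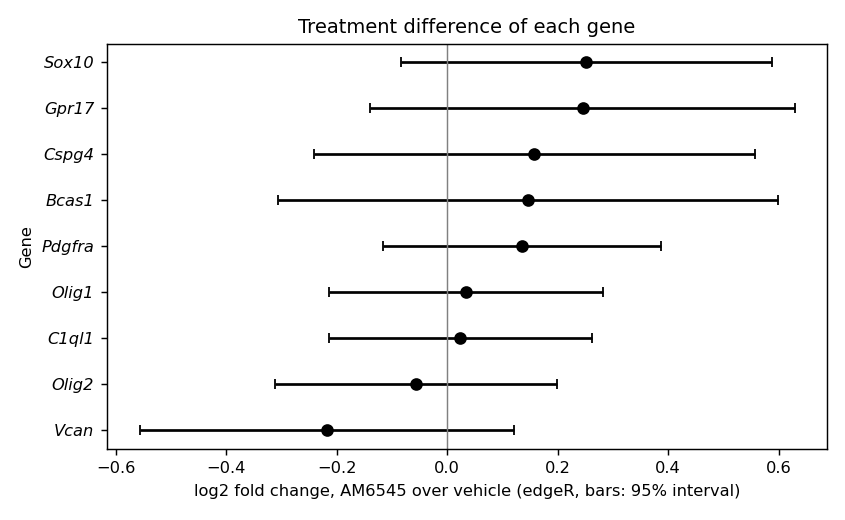
Fitted log2 fold change of AM6545 over vehicle for each of the 9 genes (edgeR, 5 libraries a group), with its 95% interval. Every interval spans 0, from Vcan at -0.22 to Sox10 at 0.25.

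Divided by transcript length, the 9 genes covered a wide range of levels. Bcas1 was the most abundant, at 191.4 ± 56.8 CPM per kilobase (SD, n = 10), above 97.3% of 14337 ranked genes. Olig1 followed at 65.9 ± 8.38 CPM per kilobase, above 89.9% of genes, and neither range overlapped that of the next gene. The median tested gene lay at 7.81 CPM per kilobase, and Olig2 (8.81 ± 1.15) and C1ql1 (7.79 ± 0.691) were close to it. The ranges of these 2 overlapped, with Olig2 the higher in 7 of 10 libraries. Sox10 lay at 5.80 ± 1.21, Pdgfra at 3.67 ± 0.515 and Gpr17 at 3.31 ± 0.790 CPM per kilobase. Each of these ranges overlapped that of its neighbour, and Pdgfra was above Gpr17 in 8 of 10 libraries. The proteoglycans were lowest, Cspg4 at 1.57 ± 0.368 and Vcan at 0.806 ± 0.204 CPM per kilobase, above 21.2% and 12.7% of genes. The Cspg4 value sums the coding model Cspg4-201 (4.08 CPM, 8121 bases) and the shorter retained-intron model Cspg4-204 (3.50 CPM, 3267 bases). The retained-intron model adds the larger part, so the order of Cspg4 and Vcan depends on counting it. Olig1 and Olig2, whose genes lie 41094 bases apart on chromosome 16, kept a per-kilobase ratio of 6.62 to 8.82, with a median of 7.34. Bcas1 stood 37.1 to 88.4 times above Gpr17, which also marks the committed stage. Unlike Gpr17, Bcas1 marks myelinating oligodendrocytes too, so the ratio does not compare 2 genes of that stage alone.

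Pdgfra encodes the receptor through which platelet-derived growth factor A keeps precursors dividing, and lies on the plus strand of chromosome 5 from 75152292 to 75198215 (GRCm38, as are all coordinates here). In vehicle replicates 1 to 5 it was read at 19.8, 23.9, 23.2, 20.6 and 24.4 TMM-scaled CPM, and in AM6545 replicates 1 to 5 at 22.7, 19.2, 29.5, 27.1 and 24.5 CPM. Above all vehicle libraries lay 3 AM6545 libraries, and 1 lay below them. The fitted log2 difference was 0.14 (SE 0.119; edgeR unadjusted p = 0.269, adjusted p = 0.9998), and it was 0.063 without AM6545 replicate 3 and 0.21 without AM6545 replicate 2. The opposite-strand genes Gm42802 and Gm42803 overlap its exons, and 5.57% of its 31-base words occur in other genes. The use of strand in counting is not given in the sources used here.

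Of 20 further genes of platelet-derived growth factor signalling, 0 passed the adjusted threshold in either direction and 0 had an unadjusted p under 0.05. Their median log2 difference was 0.04, with 12 of 20 above 0. Pdgfa, the ligand of the precursor receptor, had mean values of 33.4 ± 4.58 CPM (vehicle) and 30.8 ± 3.48 CPM (AM6545; SD, n = 5 a group). The adaptor Crk (log2 difference -0.01, SE 0.100), the kinase subunit Pik3r2 (0.04, SE 0.112) and the phosphatase Ptpn11 (-0.07, SE 0.112) were the most abundant of the list.

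Cspg4 encodes NG2, the transmembrane proteoglycan used to recognise precursors and also made by pericytes (chromosome 9, 56865033 to 56899870, plus strand). The vehicle libraries held 6.21, 5.64, 7.26, 8.44 and 8.25 CPM, and the AM6545 libraries 7.66, 5.79, 11.1, 9.78 and 5.69 CPM. AM6545 replicates 3 and 4 lay above every vehicle library, and the other 3 lay within the vehicle range. The log2 difference was 0.16 (SE 0.189; edgeR unadjusted p = 0.415), and it was 0.017 without AM6545 replicate 3 and 0.26 without AM6545 replicate 5. The gene rested on 112 to 235 counts a library.

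C1ql1, a secreted C1q-like protein that precursors share with some neurons, was the steadiest of the 9, with a coefficient of variation of 8.89% over the 10 libraries, against a median of 14.5% for tested genes. It lies on chromosome 11 from 102939264 to 102946688 on the minus strand. Its vehicle values were 12.5, 10.7, 11.2, 11.6 and 10.8 CPM, and its AM6545 values 10.3, 10.4, 12.7, 13.3 and 11.1 CPM. Of the AM6545 libraries, 2 lay above the vehicle range and 2 below it. The log2 difference was 0.02 (SE 0.113; edgeR unadjusted p = 0.834), with an interval of 0.862-fold to 1.199-fold. Among 14 tested genes of its family and their receptors, 0 passed the adjusted threshold and 0 had an unadjusted p under 0.05, with a median of 0.00 on the log2 scale. The most abundant were the synaptic proteins Nptx1 (0.06, SE 0.125) and Nptxr (0.22, SE 0.128) and the C1q-like protein C1ql2 (-0.16, SE 0.127).

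Vcan encodes versican, a large proteoglycan of the precursor's matrix, and lies on chromosome 13 from 89655312 to 89742509 on the minus strand. A pair of large exons, 7 and 8, carries the chondroitin sulphate attachment regions, and splicing joins or skips them: V0 holds both, V1 lacks exon 7 (2880 bases), V2 lacks exon 8 (5217 bases) and V3 lacks both. The junctions that tell these forms apart are shown because the counts of the gene divide between them. Each is the coding strand, 15 bases of the upstream exon in lower case and 15 of the downstream exon in capitals, read from the GENCODE M21 transcript sequences.
V0 and V2, exon 6 to exon 7: cctactgctttaaacCTAAACAGAATATAT
V1, exon 6 to exon 8: cctactgctttaaacGTCGATTGAGTGATA
V3, exon 6 to exon 9: cctactgctttaaacGACCTGATCTCTGCA
V0, exon 7 to exon 8: gagaaaacaagacagGTCGATTGAGTGATA
V2, exon 7 to exon 9: gagaaaacaagacagGACCTGATCTCTGCA
V0 and V1, exon 8 to exon 9: cagtttacctaccagGACCTGATCTCTGCA

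The form with both attachment exons, Vcan-203 (V0), held 61.8% of the gene's estimated counts on average (44 to 103 counts a library), and Vcan-202 (V2) held 28.3% (13 to 68 counts). Vcan-201 (V3) held 4.09% and was listed at 0 in 6 libraries, and Vcan-206 (V1) held 2.07% and was listed at 0 in 5. These shares of counts are not divided by model length. The models are 12427 (Vcan-203), 5702 (Vcan-202), 2321 (Vcan-201) and 8332 (Vcan-206) bases long, and a longer transcript yields more counts per copy. The shares therefore do not rank the forms by number of copies. These 4 annotated models also end in last exons of different length, so their estimates do not rest on the junctions alone. The gene as a whole was read at 5.19, 5.73, 5.91, 5.78 and 7.40 CPM in vehicle and at 4.86, 4.601, 5.62, 6.70 and 4.01 CPM in AM6545 libraries. Below every vehicle library lay 3 AM6545 libraries, and vehicle replicate 5 was the highest of all. The log2 difference was -0.22 (SE 0.160; edgeR unadjusted p = 0.192), on 81 to 174 counts a library. It was -0.13 without vehicle replicate 5 and -0.33 without AM6545 replicate 4. Of 18 other lecticans, partners and proteases, 0 passed the adjusted threshold and 0 had an unadjusted p under 0.05, with a median of 0.02. The most abundant of them were brevican (Bcan, log2 difference 0.09, SE 0.142), the link protein Hapln4 (0.01, SE 0.131) and the receptor phosphatase Ptprz1 (0.08, SE 0.108).

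Olig1 and Olig2 encode neighbouring basic helix-loop-helix transcription factors of the oligodendrocyte lineage, both on the plus strand of chromosome 16 (Olig2 from 91225457 to 91228677, Olig1 from 91269772 to 91271933). Olig1 was read at 134.1, 159.2, 139.7, 132.5 and 138.1 CPM in vehicle and at 131.1, 108.4, 168.4, 164.7 and 147.6 CPM in AM6545 libraries. Of the AM6545 libraries, 2 lay above the vehicle range and 2 below it. The log2 difference was 0.03 (SE 0.117; edgeR unadjusted p = 0.776), and 5.96% of its 31-base words are shared with Gm15966, a noncoding gene on the opposite strand.

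Olig2 was read at 19.3, 28.1, 23.9, 20.8 and 21.6 CPM in vehicle and at 23.1, 17.5, 22.4, 21.8 and 24.3 CPM in AM6545 libraries. Vehicle replicate 2 was the highest library and AM6545 replicate 2 the lowest, and the other 4 AM6545 libraries fell inside the vehicle range. The log2 difference was -0.06 (SE 0.121; edgeR unadjusted p = 0.642).

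Sox10 encodes the transcription factor that keeps lineage identity and later drives myelin genes (chromosome 15, 79154908 to 79165240, minus strand). It was read at 9.66, 16.5, 13.2, 14.6 and 18.2 CPM in vehicle and at 14.03, 16.3, 16.4, 22.3 and 17.0 CPM in AM6545 libraries. Vehicle replicate 1 was the lowest library and AM6545 replicate 4 the highest, 2.30 times above it. The log2 difference of 0.25 (SE 0.159; edgeR unadjusted p = 0.132) was the largest of the 9. Without vehicle replicate 5 the log2 difference was 0.35 with an edgeR unadjusted p of 0.0475, and without vehicle replicate 1 it was 0.14. Of 18 tested transcription partners and G-protein subunits of the lineage, 0 passed the adjusted threshold, and Hes5, a Notch target that holds progenitors back, had the smallest p (log2 difference 0.38, SE 0.127; edgeR unadjusted p = 0.00875, adjusted p = 0.9998). The most abundant of that list were Tcf4 (-0.12, SE 0.0896), Gnai1 (0.09, SE 0.102) and Gnai2 (-0.07, SE 0.107).

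Gpr17, an orphan-like G-protein-coupled receptor that marks precursors about to differentiate, was read at 9.81, 19.1, 20.8, 12.5 and 16.4 CPM in vehicle and at 17.3, 18.7, 23.7, 19.2 and 14.2 CPM in AM6545 libraries. The 2 lowest libraries, replicates 1 and 4, were both vehicle, and AM6545 replicate 3 was the highest. The log2 difference was 0.24 (SE 0.182; edgeR unadjusted p = 0.196), and it was 0.12 without vehicle replicate 1 and 0.37 without vehicle replicate 3. Its exons overlap Lims2 on the opposite strand, which held 210 to 304 counts a library and a log2 difference of -0.02 (SE 0.121). Reads of the overlap cannot be told apart without strand, and 2.59% of the 31-base words of Gpr17 are shared.

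Bcas1 encodes a myelin-associated protein that appears as precursors commit and that marks newly forming and myelinating oligodendrocytes (chromosome 2, 170346991 to 170427845, minus strand). It was read at 372.4, 424.2, 494.5, 390.7 and 410.6 CPM in vehicle and at 351.4, 309.5, 779.5, 502.4 and 373.3 CPM in AM6545 libraries. AM6545 replicate 3 stood well above the other 9 libraries, and the remaining AM6545 libraries fell on both sides of the vehicle values. The coefficient of variation over libraries was 30.2%, the largest of the 9, and the log2 difference was 0.15 (SE 0.210; edgeR unadjusted p = 0.498). It turned to -0.12 without AM6545 replicate 3. The antisense genes Bcas1os1 and Bcas1os2 overlap its exons, and 10.2% of its 31-base words are shared.

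The 9 genes have 39 transcript models in the deposited transcript table, of which 27 had a count and 15 could be tested. Of the 15, 0 passed the adjusted threshold in the edgeR fit across 31848 transcripts, where 0.00314% of all did. At an unadjusted p under 0.05 the count was also 0 of 15, against 1.97% of all tested transcripts, the smallest p being 0.288. Without a filter on low counts it was 2 of 27 (Vcan-208 and Bcas1-209, each at 0 in 8 libraries), against 3.79% of 75259 transcripts, and 0 passed adjustment. DESeq2 called 11 transcripts in the whole table, none of them of these genes. Bcas1 was split in nearly fixed proportions: Bcas1-208 held 82.1% ± 1.92 of its counts in vehicle and 80.95% ± 1.88 in AM6545 libraries, and Bcas1-201 held 17.4% ± 2.34 and 18.7% ± 2.003 (SD, n = 5 each). Both differences had an exact permutation p of 0.373. Bcas1-208 skips exons 9, 10 and 11 of Bcas1-201 (42, 165 and 66 bases), and its model starts after the third exon. Its annotated coding part is 1136 bases, not a whole number of codons, against 1899 in Bcas1-201. Whether the Bcas1-208 model is a complete transcript was not tested. The junctions around the skipped exons are shown as for versican.
Bcas1-208, exon 8 to exon 12: ttgttttggaagaagACGTCAAACTCCGTG
Bcas1-201, exon 8 to exon 9: ttgttttggaagaagTCAGTTAAGGAGGAT
Bcas1-201, exon 11 to exon 12: gactccagctgccaaACGTCAAACTCCGTG

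The estimated make-up of the other genes varied more between libraries than between groups. Shares are again of counts, not divided by model length. Cspg4 was divided between the coding Cspg4-201, 51.7% ± 15.7 in vehicle and 54.3% ± 7.26 in AM6545 libraries, and the retained-intron model Cspg4-204 (two-sided exact permutation p = 0.746 and 0.762). Sox10-203, which has the same coding length of 1398 bases as Sox10-201, was listed at 0 in 4 libraries and reached 57.8% in AM6545 replicate 5. Its mean share was 16.7% ± 19.9 in vehicle and 26.6% ± 25.7 in AM6545 libraries (exact permutation p = 0.508). Vcan-203 held 59.8% ± 15.1 and 63.8% ± 12.6 (exact permutation p = 0.651), and Vcan-202 held 29.9% ± 16.6 and 26.7% ± 11.02 (exact permutation p = 0.762). After adjustment over the 8 shares tested, each p was 0.762, where the arrangements of 5 against 5 allow no unadjusted p below 0.00794. Nearly all of Pdgfra was Pdgfra-201, and Pdgfra-202 was listed with 66 counts in AM6545 replicate 4 and at 0 in the other 9 libraries.

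**Figure D3:**
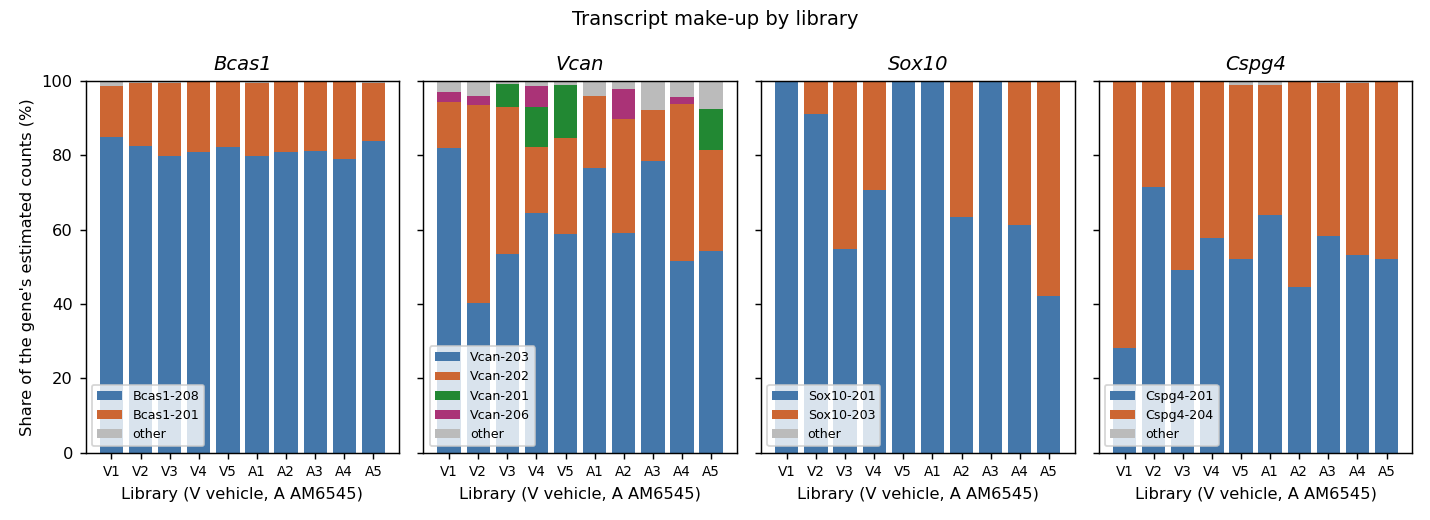
Share of each gene's estimated counts (%) by transcript model for Bcas1, Vcan, Sox10 and Cspg4 in the 5 vehicle (V) and 5 AM6545 (A) libraries. Bcas1 holds 79.1% to 84.9% Bcas1-208 in every library, while Sox10-203 is at 0 in 4 of them.

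Of the 36 pairs that the 9 genes form, 2 were correlated over the libraries after adjustment. Pearson's r on log2 CPM over the 10 libraries was above 0 for 33 of 36 pairs, against 49.7% of all pairs of tested genes, with a median of 0.40 and a range of -0.16 to 0.87. Within the 5 AM6545 libraries r was also above 0 for 33 pairs, and within the 5 vehicle libraries for 24. C1ql1 stood on the other side in vehicle, where its r was below 0 with each of the 8 other genes (lowest with Pdgfra, -0.95), while in AM6545 libraries it was above 0 with all 8. In vehicle replicate 1 C1ql1 was at its vehicle highest (12.5 CPM), while Pdgfra, Olig2, Sox10, Vcan, Gpr17 and Bcas1 were each at their vehicle lowest. The difference between the groups, and how far it rests on that library, was not tested. Pdgfra and Olig1 were the closest pair (r = 0.874, permutation p = 0.001, adjusted p = 0.033; Spearman's rho = 0.891, permutation p = 0.00115, adjusted p = 0.027). Leaving out AM6545 replicates 2 and 3, the farthest from the median of Pdgfra, gave r = 0.768 (permutation p = 0.0282), and r was 0.623 within vehicle and 0.985 within AM6545 libraries. Pdgfra and Bcas1 were the second pair (r = 0.828, permutation p = 0.00185, adjusted p = 0.033; rho = 0.782, adjusted permutation p = 0.123). Without the same 2 libraries r was 0.562 (permutation p = 0.145), so its call rests on them, and r was 0.625 within vehicle and 0.910 within AM6545 libraries.

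By rank, Olig1 and Bcas1 also passed (rho = 0.879, adjusted permutation p = 0.027), while r was 0.777 (adjusted permutation p = 0.096) and 0.608 without the 2 farthest libraries. The neighbours Olig1 and Olig2 had r = 0.671 (adjusted permutation p = 0.239) and rho = 0.552. Leaving out any 1 of vehicle replicates 4 and 5 or AM6545 replicates 2, 3 and 4 left 0 of 36 pairs past the threshold, and leaving out vehicle replicate 1 or 2 left 1. With the library total, 0 of the 9 genes was correlated after adjustment, with r from -0.36 to 0.30.

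**Figure D4:**
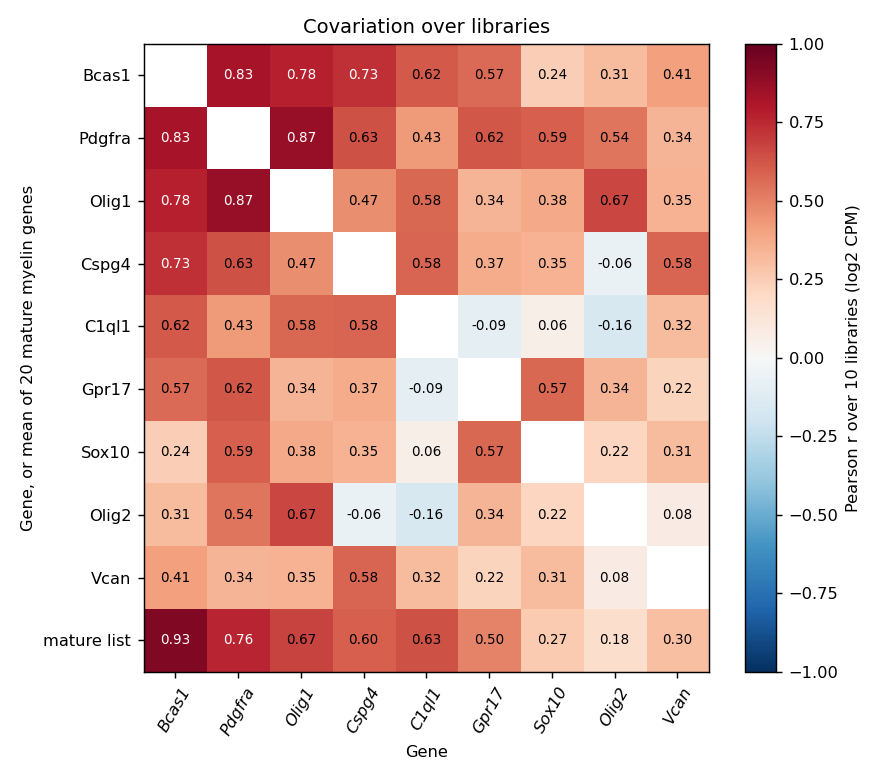
Pearson's r over the 10 libraries (log2 CPM) between each pair of the 9 genes, with the bottom row giving r with the mean of 20 mature myelin genes. Bcas1 reaches 0.93 in the bottom row and Olig2 0.18, and Pdgfra with Olig1 is the highest pair at 0.87.

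Bcas1 followed the genes of mature myelin. Against the mean log2 CPM of 20 markers of myelinating oligodendrocytes, it had r = 0.925 over the 10 libraries (permutation p = 0.00041, adjusted p = 0.0111 over 27 relations; rho = 0.818, adjusted p = 0.0829). Without AM6545 replicates 1 and 3, the farthest from the median of the markers, r was 0.847 (permutation p = 0.00758), and r was 0.887 within vehicle and 0.934 within AM6545 libraries. It was the only one of the 9 genes that passed, and none of the 27 relations did without AM6545 replicate 3 or without vehicle replicate 3, although r stayed between 0.817 and 0.949 whichever library was left out. The other 8 genes had r from 0.18 (Olig2) to 0.76 (Pdgfra, adjusted permutation p = 0.141), and the difference between these r values and that of Bcas1 was not tested. With markers of fibroblasts, which also express Pdgfra, and of pericytes, which also express Cspg4, 0 of the 9 genes was correlated after adjustment, with r from -0.49 to 0.43.

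**Figure D5:**
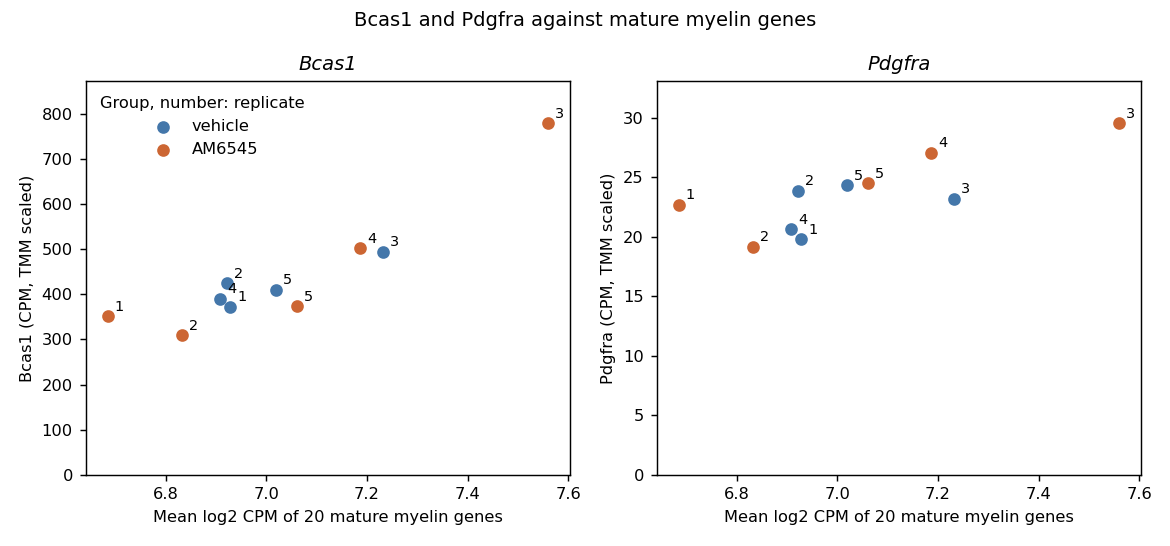
Bcas1 (left) and Pdgfra (right) in TMM-scaled CPM against the mean log2 CPM of 20 mature myelin genes, 1 point per library, numbered by replicate. AM6545 replicate 3 is at the top right of both panels, with Bcas1 at 779 CPM. On log2 CPM, r with the marker mean was 0.925 for Bcas1 and 0.758 for Pdgfra, a difference that was not tested.

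AM6545 replicate 3 held the highest value of 5 of the 9 genes (Pdgfra, Cspg4, Olig1, Gpr17 and Bcas1), of 17 of the 20 mature markers and of 9 of 20 further precursor markers, against 9.71% of all tested genes. The summed mature markers reached 31456 CPM in that library and at most 23595 CPM in the other 9, and Mbp, myelin basic protein, reached 15945 CPM there against at most 11932 CPM elsewhere. Its red blood cell markers summed to 1334 CPM, against at most 896.2 CPM elsewhere, and its astrocyte markers to 6615 CPM, against at most 6201 CPM. The part of the myelin, blood and astrocyte content in the values of the 9 genes was not tested. AM6545 replicate 2, with the smallest sum of mature markers at 14182 CPM, held the lowest value of 4 of the 9 genes, against 9.93% of all tested genes. By mean log2 CPM of the same markers AM6545 replicate 1 was lower, at 6.68 against 6.83 in AM6545 replicate 2. AM6545 replicate 1 held the lowest value of 1 of the 9 genes, against 9.04% of all tested genes. Vehicle replicate 1 was the most extreme library across the table, with the highest value of 25.1% and the lowest of 23.5% of all tested genes. It held the lowest value of 2 of the 9 genes (Sox10 and Gpr17) and of 5 of 20 further precursor markers, and the highest of 0 and 2.

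The genes whose library pattern was most like that of each of the 9 were ranked by Pearson's r over the 10 libraries among 11145 genes of at least 5 CPM. For Bcas1 they were the myelin genes Mobp (0.984), Mag (0.972) and Mbp (0.967). For Pdgfra they were Sspn (0.971), Pde8a (0.959) and Smg5 (0.950), and Olig1 ranked as the 47th closest. Olig1 was closest to Rhbdl1 (0.938), Tcf3 (0.909) and Zfp362 (0.904), with Pdgfra as the 16th. Olig2 was closest to Lrrc28 (0.971), Gosr2 (0.937) and Fam214b (0.933).

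For Sox10 the closest were Gpatch2 (0.952), Slitrk1 (0.948) and Znrf1 (0.940), and for Gpr17 they were Egfr (0.946), the epidermal growth factor receptor, Sec24d (0.914) and Sema4d (0.913). Cspg4 was closest to Slc6a6 (0.937), Aplp1 (0.925) and Zdhhc8 (0.906), C1ql1 to Mapkapk5 (0.889), Pam (0.867) and Palld (0.862), and Vcan to Pfn4 (0.887), Zfp120 (0.884) and Rnft2 (0.857). None of the 9 genes was among the 3 closest of another. These values are the highest of many and share library and scaling, so they are a description with no test.

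Other genes of the lineage did not pass either. Of 20 further precursor markers, 0 passed the adjusted threshold, with 13 above 0 and a median log2 difference of 0.06. An unadjusted p under 0.05 was reached by 2, Matn4 (0.40, SE 0.156; edgeR unadjusted p = 0.0207) and Tmem100 (-0.24, SE 0.104; edgeR unadjusted p = 0.0336), and they took opposite signs. The most abundant were Cspg5 (0.07, SE 0.0991), Bcan and Ptprz1. Of 15 tested genes of committed and newly formed oligodendrocytes, 0 passed, with a median of 0.06, and Neu4, a sialidase of that stage, had the smallest p (0.29, SE 0.131; edgeR unadjusted p = 0.0427). Fyn (0.05, SE 0.0965), Sirt2 (0.10, SE 0.101) and Nfasc (0.08, SE 0.127) were the most abundant there. Of the 20 mature markers 0 passed and 0 had an unadjusted p under 0.05, with a median of 0.10, and Mbp (0.15, SE 0.200) and Mobp (0.21, SE 0.235) were among its most abundant.

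Markers of other cells in the tissue were read in every group, and 0 genes of any of these lists passed the adjusted threshold. The median log2 difference was -0.14 for 14 fibroblast and leptomeningeal markers, 0.04 for 12 pericyte and mural markers, 0.03 for 16 astrocyte markers and -0.03 for 14 microglial markers. It was -0.10 for 13 endothelial markers, -0.45 for 18 choroid plexus and ependyma markers, 0.08 for 5 red blood cell markers, -0.01 for 14 markers of excitatory and 0.05 for 14 markers of inhibitory neurons. Summed fibroblast markers, which bear on Pdgfra, held 204.5 to 401.5 CPM in vehicle and 256.5 to 347.4 CPM in AM6545 libraries. Summed pericyte markers, which bear on Cspg4, held 94.1 to 192.1 CPM and 92.2 to 160.7 CPM. No marker of any list was at 0 in all libraries, and the part of these cells in the levels of Pdgfra and Cspg4 was not tested.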

How the data were processed

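Per the labels' protocols, libraries were prepared from total RNA of hippocampal synaptoneurosomes (SMARTer Ultra Low Input). The authors deposited estimated counts per gene and per transcript, and the submitters' processing notes name Salmon 1.5.2 and mm10. The annotation release and the use of strand are not given in the sources used here. Of the deposited estimated counts, 38.6% of gene values and 41.56% of transcript values were not whole, and all were rounded before fitting. Symbols matched 22155 of 22255 gene IDs without their version, and 101527 of 102392 transcripts had a name in GENCODE M21, whose GRCm38 coordinates and lengths are used. Only 11 gene IDs carry the same version as the symbol table, so the models used for counting may differ from these.

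Genes and transcripts were fitted over the whole table with edgeR 4.0.16 in R 4.3.3 (TMM, filterByExpr with a minimum count of 10 and minimum total of 15, robust quasi-likelihood, group alone, two-sided, Benjamini-Hochberg threshold of 0.05). The alternatives were DESeq2 1.42.0, limma-voom (limma 3.58.1), other scalings, filters and dispersions, the replicate number as a block, and leaving out each library. The script was checked on simulated counts. Levels are TMM-scaled CPM. Per-kilobase levels divide each transcript's counts by its length and sum over the gene. Shares of at least 5% were compared by exact permutation of the libraries. Correlations used log2 CPM (prior count 2) and 100000 permutations, two-sided, adjusted within 3 families (36 pairs, 9 with the library total, 27 with lists), in Python 3.11.15 with numpy 2.4.6 and scipy 1.17.1. The 27 relations with marker lists and the count of differences above 0 under each setting were added after seeing the data. The 9 genes, the lists and the tests were chosen with earlier results of these data known.

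Named beside the 9 genes are, in each list of the lineage and its pathways, the 3 of highest CPM and those with an unadjusted p under 0.05, and the 3 genes of highest r with each of the 9. One gene that this rule names is not reported here. Of each gene, up to 3 abundant transcripts are described. Other genes and transcripts named, Pdgfa, Vcan-201, Vcan-206, Vcan-208, Bcas1-209 and Pdgfra-202 among them, were chosen after their values were seen, and lists of other cell types are given by counts, medians and sums. Markers below the count filter were Casr, C1ql4, Anpep and Cdh5, and Tmem2 was not matched by symbol. With 18106112 to 25899794 counts a library, the lowest of the 9 genes rested on 81 counts, and estimates that share reads between transcripts carry a further error not included in the standard errors.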

Additional observations from a re-analysis of the deposited data

Results flagged for a closer look

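One value was marked for a closer look. Olig1 in vehicle replicate 2, at 159.2 CPM, stood apart from the other 4 vehicle libraries, which held 132.5 to 139.7 CPM. Its gap to the next library was 0.729 of the group's range, above Dixon's 95% critical value for 5 libraries. The same library was the highest of all 10 for Olig2. Chance alone marks about 1 group in 20, and 34 groups were examined, which gives 1.7 marks, so a single one carries no weight.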

How the results depend on the processing

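The count of 0 called among the 9 genes, their 15 tested transcripts and their 8 shares held under every scaling, filter, dispersion and test tried, and without any 1 library. All 72 gene values and 72 transcript values under the settings other than leaving out a library kept their sign and side of the threshold. Of the counts, 37 kept and 1 moved: all genes called went from 0 to 1 under limma-voom. Leaving out each library in turn gave 0 to 1 genes called in the whole table (1 without vehicle replicate 3 or AM6545 replicate 3), 0 to 2 correlated pairs, 4 to 8 of the 9 genes above 0 (4 without AM6545 replicate 3), and 0 to 2 relations with marker lists. The same series of fits turned the sign of several log2 differences. Ranges were -0.028 to 0.12 for Olig1, -0.11 to 0.031 for Olig2, -0.031 to 0.060 for C1ql1 and -0.12 to 0.26 for Bcas1. For transcripts they were -0.034 to 0.12 for Olig1-201, -0.11 to 0.033 for Olig2-201, -0.031 to 0.059 for C1ql1-201, -0.13 to 0.15 for Cspg4-204, -0.11 to 0.22 for Sox10-201, -0.15 to 0.24 for Bcas1-208, -0.024 to 0.37 for Bcas1-201 and -1.17 to 0.15 for Bcas1-204. The lowest Olig1, Bcas1, Bcas1-208 and Bcas1-201 values came without AM6545 replicate 3. The cause of these turns was not tested.

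Replicate numbers 1 to 5 occur in both groups. Same-numbered libraries had correlations of -0.14, -0.19, 0.23, 0.39 and 0.06 in their deviations from the group means. Of these, 3 of 5 matched best with their own number, which does not settle whether the numbers mark pairs. The labels do not say so, and the main fit therefore left the numbers out. With the replicate number as a block, 0 of the 9 genes, 0 of their transcripts and 0 of all genes were called, as without it. The smallest edgeR unadjusted p of the 9 genes was that of Sox10 in both fits, 0.0675 with the block and 0.132 without it.

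Depth limits Vcan and Cspg4 most, at 81 to 174 and 112 to 235 counts a library, and Sox10-203, Bcas1-204 and Pdgfra-208 most among transcripts, each listed at 0 in some libraries.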
